A study of Callithrix jacchus with 4 samples.

Results

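Thyroid hormone reaches neurons and glia through membrane transporters, is converted to its active form or inactivated by deiodinases, and acts through nuclear receptors that switch target genes. In the newborn brain the hormone is known for timing the maturation of neurons and the start of myelination. A set of 9 genes of this system was followed in the forebrain of common marmosets (Callithrix jacchus). The rule took the rows with their symbols: the transporters SLC16A10 and SLCO1C1, the deiodinases DIO2 and DIO3, the intracellular hormone-binding protein CRYM, the receptors THRA and THRB, and the response genes KLF9 and HR. All 9 have a row among the 35205 rows of the count table, and 8 passed the filter on low counts. DIO3 did not.

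The study compared FMR1 mutant marmosets made with CRISPR/Cas9 (2 libraries) with wild-type marmosets (2 libraries), all at postnatal day 5. FMR1 encodes FMRP, an RNA-binding protein whose loss causes fragile X syndrome. The design text speaks of forebrain samples that include cerebral cortex, striatum and hippocampus, and the label of each library says only brain. No source used here gives the FMR1 allele, the sex of the animals, or whether each library comes from its own animal. The p-values therefore measure the spread between these libraries, which may be technical.

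The 4 libraries held between 12331639 and 13455702 counts. FMR1 itself was counted 1062 and 1603 times in mutant replicates 1 and 2, against 1144 and 966 times in wild-type replicates 1 and 2, so the groups overlapped and its RNA does not check the genotype labels. Neuronal markers summed to 6644 and 6365 CPM (counts scaled to a common library size) in mutant libraries and 6090 and 6139 CPM in wild-type libraries, so the defining markers of brain tissue were present. Wild-type replicate 1 stood apart in the thalamic marker TCF7L2, with 1272 counts against 118, 121 and 139 in mutant replicate 1, mutant replicate 2 and wild-type replicate 2. All 7 thalamic markers were highest in that library. They summed to 123 and 128 CPM in mutant replicates 1 and 2, and to 312 and 121 CPM in wild-type replicates 1 and 2. Mutant replicate 1 stood apart in the hormone carrier TTR, described below with the other carriers.

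Among the thyroid hormone genes, CRYM fell in the mutant libraries and no other member passed the test. KLF9 and HR were both lower in each mutant library than in each wild-type library, by less than the test could call. Of the 8 members tested, 3 had both mutant libraries lower and 2, THRB and SLCO1C1, had both higher. Such separations were seen in 21.8% and 21.4% of all genes tested. Both receptors differed between the groups by less than 0.1 on the log2 scale. Across all 16956 genes tested, 2.23% were called in either direction, 1.57% lower and 0.661% higher in the mutant (edgeR quasi-likelihood test, Benjamini-Hochberg adjusted p under 0.05, which is the test behind every call here). Of the 8 members tested, 1 was called lower and 0 higher. DESeq2 and limma-voom gave the same counts, and at an unadjusted p under 0.05 by edgeR 3 members were lower and 0 higher, where 7.75% of all genes were lower and 5.64% higher.

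**Figure D1:**
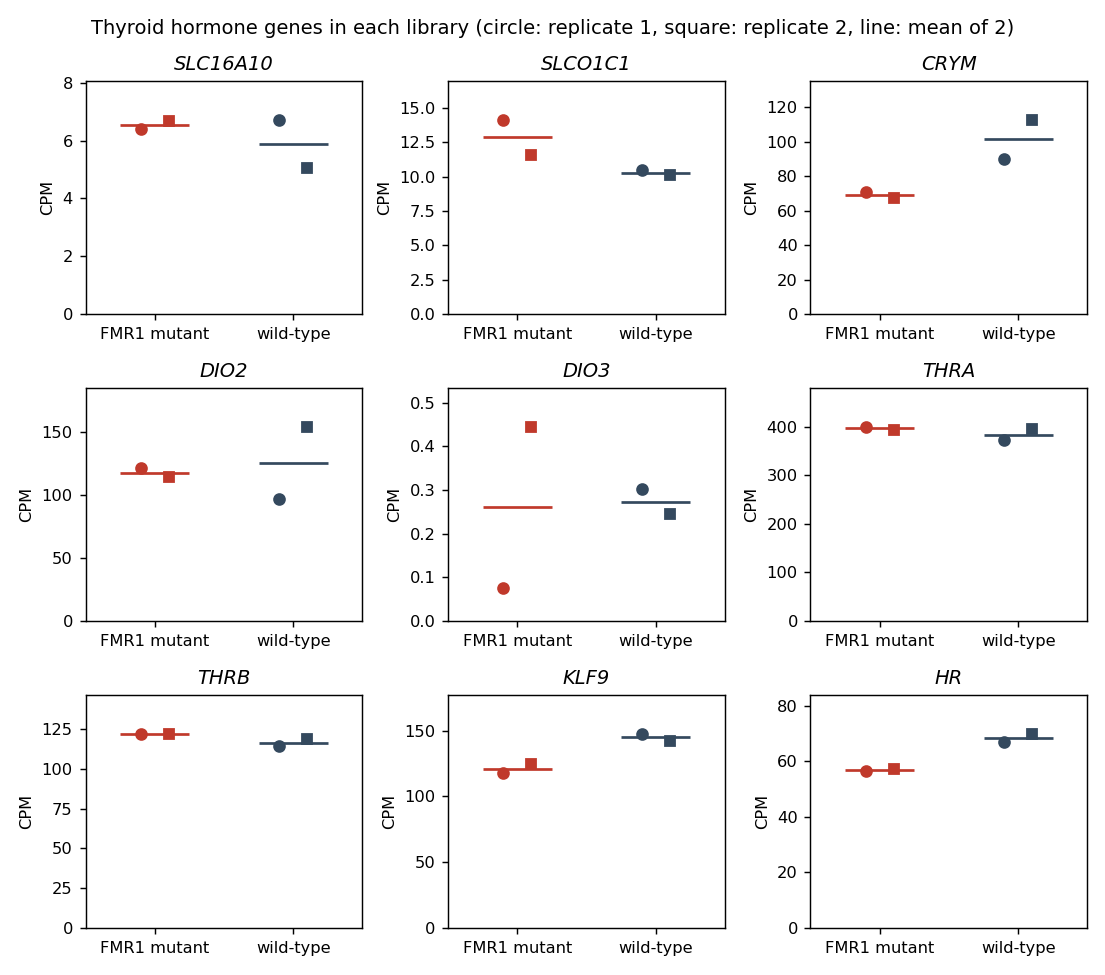
Level of each of the 9 genes in every library, in CPM on a linear axis from 0, with FMR1 mutant libraries on the left and wild-type libraries on the right. Points are libraries and lines are means of 2. CRYM, KLF9 and HR lie lower in both mutant libraries, and THRB and SLCO1C1 lie higher in both. Of all genes tested, 43.1% were separated in either direction. DIO2 spans a wider range within the wild-type group (96.9 to 154 CPM) than between groups.

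CRYM encodes mu-crystallin, an NADPH-dependent protein of the cytosol that holds triiodothyronine, the active hormone, and that is also known as a ketimine reductase. It was counted 929 and 907 times in mutant replicates 1 and 2, against 1195 and 1384 times in wild-type replicates 1 and 2. In CPM these counts correspond to 70.9 and 67.3 in the mutant libraries and 90.1 and 113 in the wild-type libraries. Both mutant libraries lay below both wild-type libraries, and wild-type replicate 2 was the highest. A separation of this kind with the mutant lower was seen in 21.8% of all genes tested.

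Mean CRYM abundance was 69.1 ± 2.56 CPM in mutant and 101 ± 15.9 CPM in wild-type libraries (SD, n = 2 each). On the log2 scale the mutant over wild-type change was -0.55 with an SE of 0.13 and a 95% interval of -0.82 to -0.29. This is a ratio of 0.682, and its adjusted p by edgeR was 0.0150. The replicates were 0.08 apart on the log2 scale in the mutant group and 0.32 apart in the wild-type group. CRYM was called under every scaling, filter and tool tried with all 4 libraries, and with the replicate number as a block. With 1 library left out it was called only without wild-type replicate 1 (-0.71, adjusted p = 0.00133). The adjusted p was 0.0581 without mutant replicate 1 (-0.59), 0.123 without mutant replicate 2 (-0.51) and 0.229 without wild-type replicate 2 (-0.38).

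**Figure D2:**
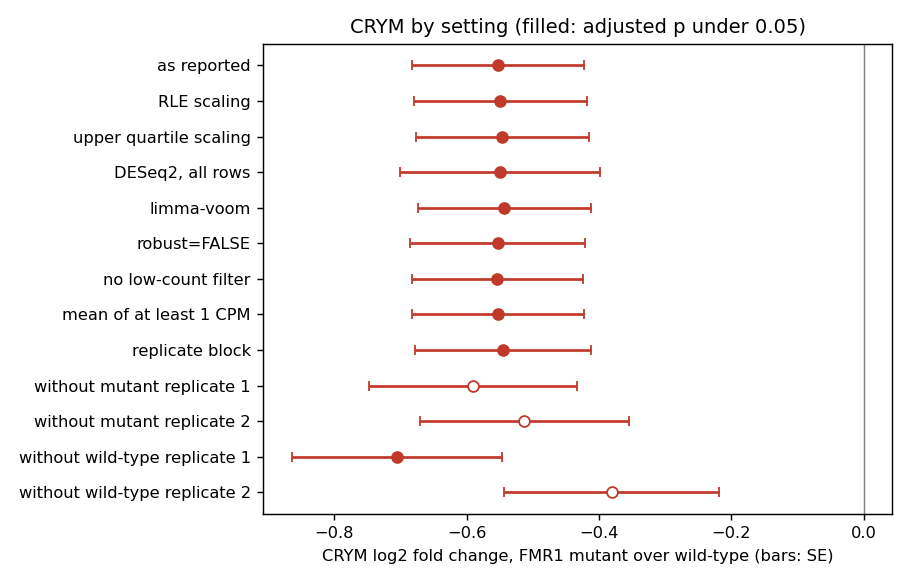
Log2 fold change of CRYM, mutant over wild-type, under each setting, with bars for the SE and filled points where the adjusted p is under 0.05. All values lie below 0, from -0.71 without wild-type replicate 1 to -0.38 without wild-type replicate 2, and 3 of the fits that leave out 1 library are not called.

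CRYM is known as a transcript of neurons in cortex, hippocampus and striatum, and in bulk tissue fewer cells of a type and less RNA per cell cannot be told apart. Its level was therefore set beside marker lists of those cells. As a share of the summed CPM of 7 neuronal markers, CRYM stood at 1.07% and 1.06% in mutant libraries and 1.48% and 1.84% in wild-type libraries. Against 8 markers of cortical excitatory neurons the shares were 2.97% and 2.82% in mutant libraries and 4.42% and 4.90% in wild-type libraries. Against 9 striatal markers they were 14.8% and 11.2% in mutant libraries and 15.2% and 21.0% in wild-type libraries. The groups did not overlap on any of these 3 scales, but on the striatal scale mutant replicate 1 nearly reached wild-type replicate 1.

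Calls in these lists were few, but single markers moved. Of the 7 neuronal markers 1 fell and 0 rose, and the median log2 fold change was -0.08. The marker that fell was GAD2 (-0.46, SE 0.12, adjusted p = 0.0352 by edgeR), which DESeq2 and limma-voom also called. With 1 library left out GAD2 ranged from -0.545 to -0.363, and its call was kept only without wild-type replicate 1. STMN2, the largest part of the neuronal sum, was 0.31 (SE 0.11, adjusted p = 0.141 by edgeR). Of the 9 striatal markers 0 were called by edgeR, DESeq2 or limma-voom, with 2 lower and 0 higher at an unadjusted p under 0.05 by edgeR and a median log2 fold change of 0.09. Of the 8 cortical markers 1 rose, the transcription factor NEUROD6 (0.41, SE 0.11, adjusted p = 0.0469 by edgeR), and the median was 0.13. NEUROD6 was not called when any 1 library was left out or by limma-voom.

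The genes whose pattern over the 4 libraries was most like that of CRYM were BGN, a proteoglycan of the extracellular matrix, CX3CL1, the neuronal ligand of the microglial fractalkine receptor, and ARHGEF10. Likeness was the distance between log2 CPM values centred on each gene's mean, and it was 0.049 for BGN and 0.058 for the other two. Of the 3, CX3CL1 was called (-0.50, SE 0.12, adjusted p = 0.0155 by edgeR), with 231 and 214 CPM in mutant libraries and 284 and 347 CPM in wild-type libraries. With only 4 libraries many genes lie close by: 89 of 11648 candidates were within 0.2 of CRYM.

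**Figure D3:**
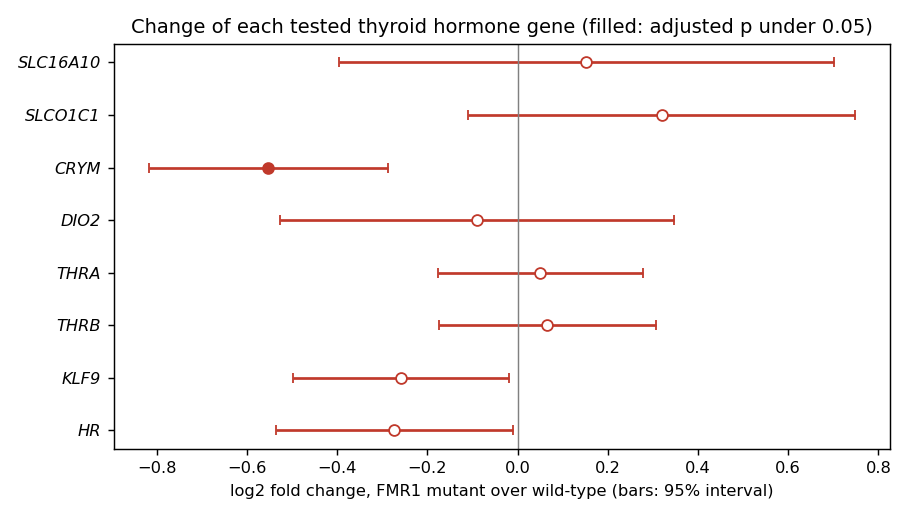
Log2 fold change, mutant over wild-type, of the 8 members that passed the filter on low counts, with 95% intervals from the edgeR fit and a filled point where the adjusted p is under 0.05. CRYM is the filled point, at -0.55, and the intervals of KLF9 and HR end just below 0 before adjustment over all genes.

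KLF9, a zinc finger transcription factor that triiodothyronine induces directly in rodent neurons and oligodendrocyte precursors, was counted 1543 and 1679 times in mutant libraries and 1960 and 1743 times in wild-type libraries. These counts equal 118 and 125 CPM in mutant libraries and 148 and 142 CPM in wild-type libraries. Both mutant libraries were below both wild-type libraries, as in 21.8% of all genes tested. Replicates were 0.08 apart on the log2 scale in the mutant group and 0.06 apart in the wild-type group. The change of -0.26 on the log2 scale (SE 0.12; interval at 95%, -0.50 to -0.02) came with an unadjusted p of 0.0360 and an adjusted p of 0.324 by edgeR.

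HR encodes Hairless, a nuclear corepressor that binds thyroid hormone receptors and whose gene the hormone induces in rodent brain. It was counted 739 and 769 times in mutant libraries and 890 and 860 times in wild-type libraries, or 56.4 and 57.1 CPM in mutant libraries and 67.1 and 70.0 CPM in wild-type libraries. The mutant libraries were again both lower, as in 21.8% of all genes tested. Replicates were 0.02 apart on the log2 scale in the mutant group and 0.06 apart in the wild-type group. This gave a log2 fold change of -0.27 (SE 0.13), with a 95% interval of -0.54 to -0.01, an unadjusted p of 0.0423 and an adjusted p of 0.349 by edgeR.

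With 1 library left out, KLF9 stayed between -0.30 and -0.22 and HR between -0.30 and -0.24, and neither was called in any alternative. As a share of the neuronal marker sum, HR was 0.849% and 0.896% in mutant libraries and 1.10% and 1.14% in wild-type libraries. The corresponding shares of KLF9 were 1.77% and 1.96% in mutant libraries and 2.43% and 2.31% in wild-type libraries. Glial transcripts moved alongside: 13 of 16 markers of mature oligodendrocytes fell and 0 rose, and their summed CPM was 1552 and 1492 in mutant libraries and 3854 and 3780 in wild-type libraries. As a share of that sum KLF9 was 7.59% and 8.35% in mutant libraries and 3.84% and 3.75% in wild-type libraries. The sum fell far more than KLF9 did, so the higher share follows from the smaller sum and not from more KLF9. Of 10 markers of oligodendrocyte precursors and committed cells 3 fell and 0 rose (median -0.32). Of 10 microglial markers 3 fell and 0 rose (median -0.48), with LAPTM5 and CSF1R at the smallest p. Among these 10, 8 had negative and 2 positive values, and DESeq2 called 2 lower. With 1 library left out, 0 microglial markers were called without mutant replicate 2, 1 precursor marker without wild-type replicate 2, and 12 to 13 markers of mature oligodendrocytes in each such fit. The microglial count was 2 without wild-type replicate 2, and the precursor count 2 without mutant replicate 1. KLF9 is expressed in glia as well as neurons, and the part of the glial change in its values was not tested.

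THRA encodes the alpha receptor, the main thyroid hormone receptor of the developing brain, and THRB encodes the beta receptor. THRA was counted 5234 and 5303 times in mutant libraries and 4926 and 4843 times in wild-type libraries, or 400 and 393 CPM in mutant libraries and 372 and 394 CPM in wild-type libraries. The groups overlapped, since wild-type replicate 2 lay between the mutant libraries. A log2 fold change of 0.05 (SE 0.11), with an interval of -0.18 to 0.28 at 95%, had an adjusted p of 0.910 by edgeR.

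THRB was counted 1596 and 1648 times in mutant libraries and 1519 and 1457 times in wild-type libraries, equal to 122 and 122 CPM in mutant libraries and 115 and 119 CPM in wild-type libraries. The mutant libraries were both higher, by a small margin, as in 21.4% of all genes tested. Mutant over wild-type, THRB changed by 0.07 on the log2 scale (SE 0.12), with a 95% interval of -0.17 to 0.31 and an adjusted p of 0.883 by edgeR. The intervals of both receptors leave room for changes of about 0.2 to 0.3 on the log2 scale. The THRA to THRB ratio of CPM was 3.28 and 3.22 in mutant libraries and 3.24 and 3.32 in wild-type libraries, and the groups overlapped. CPM is not divided by transcript length, so this ratio compares libraries and not the 2 receptors.

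The THRA locus overlaps NR1D1, a repressor of the circadian clock, in the RefSeq gene table of assembly calJac240_pri. The library kit keeps strand, but no source used here states the strand setting of the counting, so reads shared by the pair could have been counted for either. NR1D1 had 179 and 150 CPM in mutant libraries and 161 and 170 CPM in wild-type libraries (log2 fold change -0.01, adjusted p = 0.987 by edgeR). HR likewise overlaps HRURF, a small open reading frame upstream of it, which was counted 24 and 43 times in mutant libraries and 45 and 56 times in wild-type libraries.

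DIO2 converts thyroxine to triiodothyronine and is known in brain as an enzyme of astrocytes and tanycytes. It was counted 1591 and 1539 times in mutant libraries and 1284 and 1894 times in wild-type libraries, or 121 and 114 CPM in mutant libraries and 96.9 and 154 CPM in wild-type libraries. The mutant libraries sat close together between the wild-type libraries, which were 0.67 apart on the log2 scale.

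For DIO2 the log2 fold change of -0.09 (SE 0.19) had a 95% interval of -0.53 to 0.35 and an adjusted p of 0.907 by edgeR, and its sign depended on the wild-type library. It was 0.28 without wild-type replicate 2 (adjusted p = 0.464) and -0.39 without wild-type replicate 1 (adjusted p = 0.228), the library with the high TCF7L2 count. Among 12 astrocyte markers 2 fell, the glutamate transporter SLC1A2 (-0.61, SE 0.11) and the secreted chaperone CLU (-0.51, SE 0.11). All 12 had negative values, with a median of -0.40 beside -0.004 over all genes tested. As a share of the summed astrocyte markers DIO2 was 3.09% and 2.7% in mutant libraries and 1.77% and 2.92% in wild-type libraries, and the groups overlapped. Of 3 tanycyte and ependymal markers tested, 0 were called by edgeR, DESeq2 or limma-voom. LHX2 alone was higher at an unadjusted p under 0.05 by edgeR (0.30, SE 0.12, adjusted p = 0.217). RAX and CCDC153 of the same list had 0 counts in every library, so the list does not measure tanycyte content.

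DIO3, which inactivates thyroxine and triiodothyronine and is known as a fetal and placental enzyme, was barely detected. It was counted 1 and 6 times in mutant libraries and 4 and 3 times in wild-type libraries. Over each group this makes 7 counts in mutant and 7 in wild-type libraries, a depth-scaled ratio of 0.961, for which counting error alone gives a 95% interval of 0.288 to 3.21. Any change within those bounds was not detectable at this depth. The bounds leave out the spread between replicates, which were 2.54 apart on the log2 scale in the mutant group. Changes somewhat beyond the bounds may therefore also have gone undetected.

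**Figure D4:**
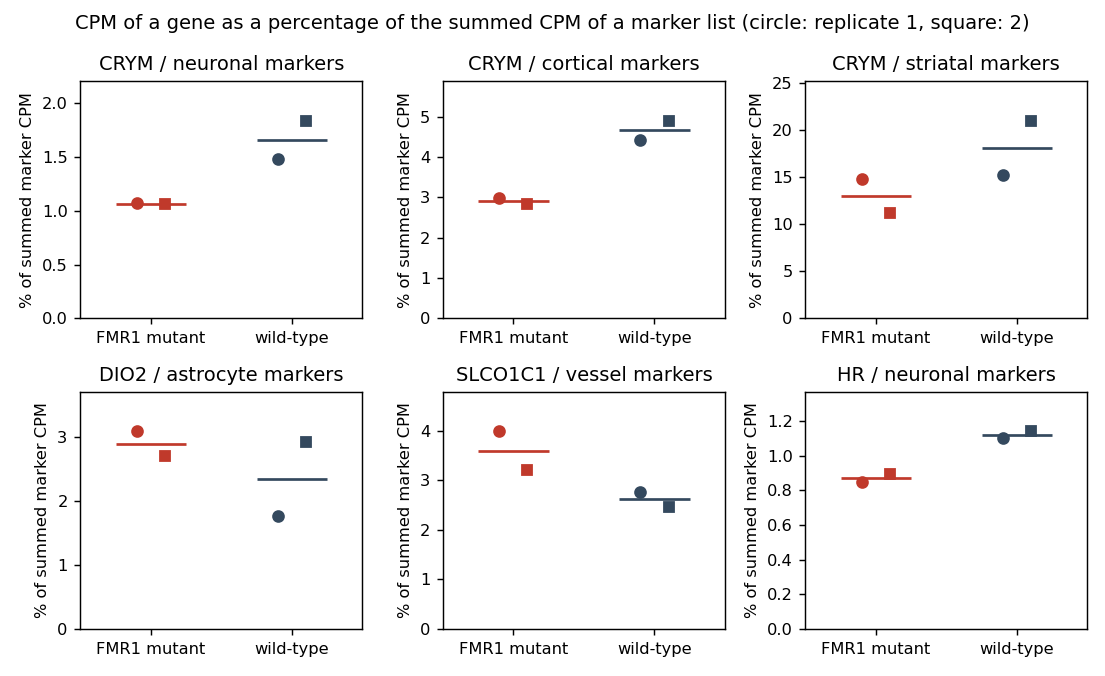
CPM of CRYM, DIO2, SLCO1C1 and HR as a percentage of the summed CPM of a marker list in the same library, on linear axes from 0, with FMR1 mutant libraries on the left. Points are libraries and lines are means of 2. CRYM is lower in both mutant libraries on all 3 of its scales, DIO2 overlaps between groups, and SLCO1C1 is higher in both mutant libraries relative to vessel markers.

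SLCO1C1 encodes a thyroxine transporter of brain capillary endothelium and choroid plexus, which in rodents is also found in astrocytes. It was counted 185 and 156 times in mutant libraries and 139 and 124 times in wild-type libraries, equal to 14.1 and 11.6 CPM in mutant libraries and 10.5 and 10.1 CPM in wild-type libraries. Both mutant libraries were higher, mutant replicate 1 most of all, a separation seen with the mutant higher in 21.4% of all genes tested. Its change of 0.32 on the log2 scale (SE 0.21), with a 95% interval of -0.11 to 0.75, did not pass at an adjusted p of 0.557 by edgeR, and was 0.17 without mutant replicate 1.

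None of the 12 endothelial and pericyte markers was called by edgeR, DESeq2 or limma-voom, and 2 were lower and 0 higher at an unadjusted p under 0.05 by edgeR (median -0.15). They summed to 354 and 362 CPM in mutant libraries and 380 and 409 CPM in wild-type libraries. SLCO1C1 as a share of that sum was 3.99% and 3.20% in mutant libraries and 2.76% and 2.47% in wild-type libraries.

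SLC16A10, a transporter of aromatic amino acids and thyroid hormones, was counted 84 and 90 times in mutant libraries and 89 and 62 times in wild-type libraries. In CPM it stood at 6.41 and 6.68 in mutant libraries and 6.71 and 5.05 in wild-type libraries, so the groups overlapped and only wild-type replicate 2 was low. With a 95% interval of -0.40 to 0.70, the log2 fold change of 0.15 (SE 0.27; adjusted p of 0.880 by edgeR) turned to -0.03 without wild-type replicate 2. With fewer than 100 counts in every library, SLC16A10 was measured less precisely than the more abundant members.

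Other genes of the same system showed few calls. Of 64 tested genes in 5 further lists, 2 fell and 0 rose by edgeR, and DESeq2 and limma-voom gave the same counts. Over all genes tested the shares called were 1.57% lower and 0.661% higher, so 2 of 64 lies near the background. At an unadjusted p under 0.05 by edgeR, 10 of the 64 were lower and 1 higher, beside 7.75% and 5.64% of all genes. The lists held other transporters and carriers, factors of deiodinase synthesis and turnover, receptor partners, other response genes, and other KLF factors, which are described last.

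Among the other transporters and carriers, 0 of 8 tested were called. SLCO1A2, an organic anion and thyroid hormone transporter that is also known from human oligodendrocytes, had the smallest p. It was counted 26 and 37 times in mutant libraries and 72 and 66 times in wild-type libraries. Both mutant libraries were well below both wild-type libraries, and 21.8% of all genes tested had the mutant libraries below. At -1.19 on the log2 scale (SE 0.33; 95% interval, -1.87 to -0.51), SLCO1A2 had an adjusted p of 0.0512 by edgeR, just short of the threshold. By edgeR it passed with the replicate block (0.0385), with a mean of at least 1 CPM (0.0474) and without a low-count filter (0.0248). It did not pass by edgeR under other scalings (0.0518 and 0.0526) or with robust = FALSE (0.0627). Nor did it pass by limma-voom (0.0686) or DESeq2 (0.312). With 1 library left out, SLCO1A2 ranged from -1.44 to -0.97 on the log2 scale and was not called in any such fit. Markers of mature oligodendrocytes were lower beside it, as given above for KLF9, and their part in the SLCO1A2 value was not tested.

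SLC7A8, a light chain of amino acid and thyroid hormone exchangers, was counted 78 and 115 times in mutant libraries and 128 and 144 times in wild-type libraries (-0.56, SE 0.24, adjusted p = 0.284 by edgeR).

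TTR, the thyroxine carrier of cerebrospinal fluid made by the choroid plexus, falls outside the rule for naming genes and is given because 1 library decides its value. It was counted 1244 and 87 times in mutant replicates 1 and 2, against 8 and 89 times in wild-type replicates 1 and 2. It was thus far highest in mutant replicate 1 and lowest in wild-type replicate 1, and its change of 3.72 on the log2 scale (SE 2.26) did not pass, with an adjusted p of 0.661 by edgeR. Without the robust moderation of outlying genes it did pass (adjusted p = 0.00229 by edgeR). The 6 other choroid plexus markers summed to 27.3 and 15.7 CPM in mutant libraries and 29.6 and 20.9 CPM in wild-type libraries. Most of that sum is AQP1, and single markers differed: CLIC6, like TTR, was highest in mutant replicate 1 (57 and 19 counts in mutant libraries, 13 and 24 in wild-type libraries), while OTX2 was highest in wild-type replicate 1 (23 and 0 counts in mutant libraries, 78 and 5 in wild-type libraries). SLCO1C1 was also highest in the library where TTR was highest, and the part of choroid plexus RNA in it was not tested.

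Factors of deiodinase synthesis and turnover include the enzymes that make selenocysteine, which deiodinases carry in their active site, and ubiquitin enzymes that act on DIO2. Of 9 tested, 0 were called by edgeR, DESeq2 or limma-voom, 0 had an unadjusted p under 0.05 by edgeR, and the median log2 fold change was 0.05. PSTK, a kinase of selenocysteine synthesis, was 0.45 (SE 0.23, adjusted p = 0.407) and MARCHF6, a ubiquitin ligase of the endoplasmic reticulum, was 0.13 (SE 0.11, adjusted p = 0.694), both by edgeR.

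Receptor partners, among them the retinoid X receptors, corepressors and coactivators, gave 0 calls among 16 by edgeR, DESeq2 or limma-voom. Of these, 3 were lower and 0 higher at an unadjusted p under 0.05 by edgeR, and the median was -0.07. The coactivator EP300 was 58.6 ± 9.62 CPM in mutant and 73.7 ± 1.12 CPM in wild-type libraries (SD, n = 2 each; -0.33, SE 0.13, adjusted p = 0.247 by edgeR).

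Among 20 other genes known from rodents to respond to thyroid hormone in brain or other tissue, 2 fell and 0 rose, and 16 had negative and 4 positive values. The median was -0.23 beside -0.004 over all genes tested, and 11 of the 20 had both mutant libraries below both wild-type libraries, as did 21.8% of all genes. Of all genes tested, 1.57% were called lower. ALDH1A1, an enzyme of retinoic acid synthesis, had 29.2 and 30.6 CPM in mutant libraries and 48.4 and 43.2 CPM in wild-type libraries. It fell by 0.61 on the log2 scale, with an SE of 0.14 and an adjusted p of 0.0148 by edgeR. ITGA7, a laminin-binding integrin, had 51.0 and 48.2 CPM in mutant libraries and 74.5 and 70.0 CPM in wild-type libraries. It fell by 0.54 on the log2 scale, with an SE of 0.13 and an adjusted p of 0.0169 by edgeR.

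Replicates of ALDH1A1 and ITGA7 lay close together and the groups were well apart, but with 1 library left out each call was kept only when that library was wild-type replicate 2. The adjusted p of ALDH1A1 was 0.125 without mutant replicate 1, 0.0633 without mutant replicate 2 and 0.119 without wild-type replicate 1. For ITGA7 it was 0.0674, 0.128 and 0.105 in the same order. Genes with opposite responses are mixed in this list, so its direction is not a measure of hormone action.

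**Figure D5:**
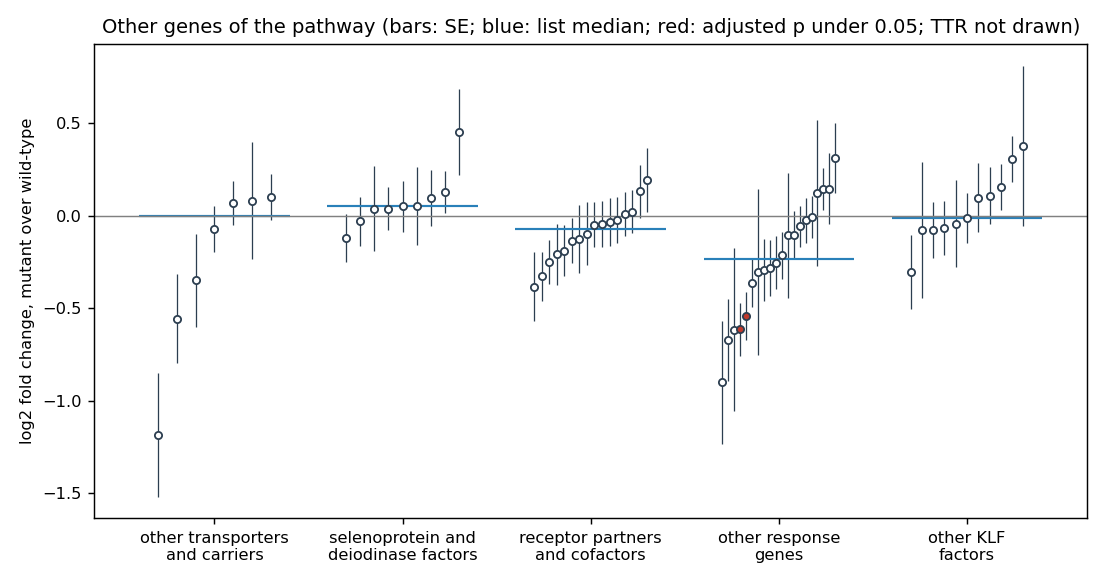
Log2 fold change, mutant over wild-type, of each tested gene in 5 further lists of the thyroid hormone system, with bars for the SE, a blue line for the list median over all its tested genes and red points where the adjusted p is under 0.05. TTR, at 3.72 with an SE of 2.26, is not drawn. The red points are ALDH1A1 and ITGA7 among the other response genes, and the lowest point is SLCO1A2 at -1.19.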

How the data were processed

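The deposited file holds raw read counts per gene as the authors made them, without scaling. Libraries were poly(A)-selected and made with a directional kit, per the labels' protocols. Trimmomatic 0.38 and STAR 2.7.10a are named in the submitters' processing notes, while no source used here states the counting tool, strand setting, build or annotation.

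In R 4.3.3, genes passing filterByExpr (minimum count 10) were scaled by TMM and compared with edgeR 4.0.16 (glmQLFit with robust = TRUE, glmQLFTest, Benjamini-Hochberg adjustment over all 16956 genes). The SE is the log2 fold change divided by the square root of F, with 2 residual degrees of freedom moderated across genes. DESeq2 1.42.0 and limma 3.58.1 (voom) were alternatives, as were other scalings, filters, the replicate block and each library left out with the gene set kept. On simulated data the test recovered 14.5% of 62 genes with an absolute log2 change of 0.5 and 63.8% of 69 genes with a change of 1. Of its 121 calls there, 5 were false. Counting intervals are exact conditional binomial at 95% and cover counting error only.

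The members and lists were chosen with earlier results of these data known. Named genes are all members, up to 4 called genes per pathway list or the 2 of smallest p, up to 2 per marker list where used, and the 3 genes most like CRYM among those with a symbol and a mean of at least 5 CPM. Replicate libraries were not duplicates: their counts gave a chi-square of 6.90 (mutant) and 7.28 (wild-type) per degree of freedom, where sampling noise alone gives values near 1. Gene lengths and sequences were not used here. Some list genes are not reported here by name but remain in the tests.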

Additional observations from a re-analysis of the deposited data

How the results depend on the processing

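The CRYM decrease kept its direction in all 12 alternatives, from -0.71 to -0.38 on the log2 scale, and 9 of them called it. The members called lower numbered between 0 and 1 with 1 library left out, and 0 were called higher in any alternative. Over all genes, 112 were called higher and 266 lower. With 1 library left out these counts ranged from 45 to 173 higher and from 118 to 389 lower. They were 194 and 439 without a low-count filter, 216 and 408 at an adjusted p of 0.1, and DESeq2 called 164 lower. In the 5 further lists 0 to 2 genes were called lower with 1 library left out, and 1, TTR, was called higher with robust = FALSE. Signs turned, with no call on either side, without wild-type replicate 2 for DIO2 (0.285) and SLC16A10 (-0.0346), whose values with 1 library left out ranged from -0.388 to 0.285 and from -0.0346 to 0.374. They turned without mutant replicate 1 for CLIC6, a choroid plexus marker (range -0.0496 to 1.57), and ALAS2, a red cell marker (range -0.146 to 1.58). The causes were not tested. Replicate numbers are shared by the groups, but nothing says that they pair animals, and deviations of same-numbered libraries correlated at 0.028 across genes. With the replicate block CRYM was -0.545 (adjusted p = 0.0127) and 493 genes were called. With 2 libraries a group, log2 changes of the size of those in KLF9 and HR are hard to call, and depth limits DIO3 and SLC16A10.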

Other observations

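Other members of the KLF family of zinc finger factors, to which KLF9 belongs, were not called: 0 of 11 passed by edgeR, DESeq2 or limma-voom, with 1 higher and 0 lower at an unadjusted p under 0.05 by edgeR, and the median log2 fold change was -0.01. KLF7, a factor of axon growth, was 158 ± 18.3 CPM in mutant and 128 ± 19.3 CPM in wild-type libraries (SD, n = 2 each; 0.31, SE 0.13, adjusted p = 0.251 by edgeR). KLF13, the close paralog of KLF9, was 44.9 ± 14.8 CPM in mutant and 55.5 ± 7.59 CPM in wild-type libraries (SD, n = 2 each; -0.31, SE 0.20, adjusted p = 0.585 by edgeR). KLF13 was counted 451 and 746 times in mutant libraries and 665 and 748 times in wild-type libraries, so mutant replicate 1 was low alone, and without mutant replicate 2 its log2 fold change was -0.69 (adjusted p = 0.0466 by edgeR).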
